A study of Homo sapiens with 18 samples.

Results

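LNCaP cells given VPC-13789 together with dihydrotestosterone (DHT), the potent natural androgen, were compared with LNCaP cells given DHT alone, in 3 biological replicates each, 6 of the 18 samples of the study. The comparison took every row of the authors' table for this contrast that carried a gene symbol and not a date, which was 27574 of 27599 rows. LNCaP is a human prostate cancer line that expresses the androgen receptor and answers androgen. All cultures were held for 48 h in 5% charcoal-stripped serum, low in steroid hormones, and were treated for 6 h before total RNA was extracted and sequenced. The first group received 3 µM VPC-13789, a compound known here by its code, with 10 nM DHT and the second received the solvent DMSO with 10 nM DHT. Another group used beside them received 1.5 µM enzalutamide, a drug that blocks the androgen receptor, with 10 nM DHT. Further groups received enzalutamide without DHT, VPC-13789 without DHT, or the vehicles ethanol and DMSO alone. Each of these groups had 3 replicates. The dose of VPC-13789 is stated for the arm with DHT and was taken to be the same without it.

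The androgen receptor is a transcription factor that moves to the nucleus on binding DHT and switches on genes such as those of the prostate kallikreins, TMPRSS2 and FKBP5. Cholesterol and fatty acid genes are under a different control. Their transcription factors, the SREBPs, stay in the endoplasmic reticulum while sterols are plentiful, held there with their escort SCAP by the INSIG proteins. When sterols run low the SREBPs are released and raise genes of sterol synthesis and uptake, INSIG1 itself among them, whereas the LXR receptors raise sterol exporters such as ABCG1 when sterols are plentiful.

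The promoters of INSIG1, FKBP5 and KLK3 are shown because these genes stand for 3 outcomes, a sterol gene that was lower, an androgen receptor target that was lower and an androgen receptor target that was not called. Each is the RefSeq sequence on GRCh38.p14 from 250 bases before to 50 bases after an annotated start, 5′ to 3′ on the gene's strand. INSIG1 lies at chr7:155297628-155297927 on the plus strand, and the capitals mark TCACGTGA, an E-box of the kind bound by SREBPs. FKBP5 lies at chr6:35728534-35728833 on the minus strand and KLK3 at chr19:50854665-50854964 on the plus strand, and the capitals mark AGAACA, an arm of the palindrome of an androgen response element.
INSIG1: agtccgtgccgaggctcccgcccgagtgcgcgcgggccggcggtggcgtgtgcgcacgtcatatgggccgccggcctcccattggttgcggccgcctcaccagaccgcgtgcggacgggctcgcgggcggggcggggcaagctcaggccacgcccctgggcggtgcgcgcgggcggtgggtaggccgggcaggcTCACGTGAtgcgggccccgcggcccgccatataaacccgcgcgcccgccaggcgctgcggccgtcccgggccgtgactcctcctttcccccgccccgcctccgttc
FKBP5: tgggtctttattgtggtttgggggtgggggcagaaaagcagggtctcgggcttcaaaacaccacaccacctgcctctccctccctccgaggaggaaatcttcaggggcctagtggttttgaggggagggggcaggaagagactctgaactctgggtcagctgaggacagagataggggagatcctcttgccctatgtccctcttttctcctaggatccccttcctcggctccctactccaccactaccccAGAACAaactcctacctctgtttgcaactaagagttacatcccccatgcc
KLK3: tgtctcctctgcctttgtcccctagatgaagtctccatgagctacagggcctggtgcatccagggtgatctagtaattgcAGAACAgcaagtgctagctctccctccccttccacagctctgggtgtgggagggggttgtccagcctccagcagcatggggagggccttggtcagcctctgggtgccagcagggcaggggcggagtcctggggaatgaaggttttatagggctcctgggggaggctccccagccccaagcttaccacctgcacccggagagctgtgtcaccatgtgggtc
On both strands, TCACGTGA was found in 0.98% of all 35116 RefSeq promoters of this length and 1.67% of the 14837 promoters matched to genes tested, and among the genes lower with VPC-13789 INSIG1 was the single carrier. AGAACA was found in 10.2% of the 49 promoters matched to 30 of the 38 genes called lower, against 9.41% for genes tested and 14.8% of all promoters. For the E-box, INSIG1 was 1 of these 49 promoters (2.04%), near the 1.67% for genes tested. Genes called lower without a matched promoter were not searched. The sterol regulatory element was found among the 49 in KLHL36 alone (2.04%, against 1.09% for genes tested), and not in INSIG1. The full androgen response element was found in 0 of the 49, but also in 0 of the 14837 promoters matched to genes tested. Of all 35116 promoters 1 held it, so the 0 does not set the genes called lower apart. A match of such letters is a description of the sequence and not a binding site.

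The values are the authors' own DESeq2 results, a log2 fold change of VPC-13789 with DHT over DHT, its standard error (SE) and an adjusted p, called under 0.05. No values per sample were analysed, so depth per library is unknown, and where levels are given they are group means recovered from the authors' average normalized count and their fold changes. Such levels are comparable between groups for 1 gene and not between genes. The median SE was 0.27 on the log2 scale among the 10819 genes averaging at least 100 normalized counts. At that SE a gene needed a log2 change of 1.03, or 2.05-fold, to be called. All 10 luminal prostate markers averaged at least 4054 normalized counts, while PTPRC, CD68, LYZ and DCN, markers of blood, immune and stromal cells, averaged under 1. VWF and COL1A1 from that list averaged 1014 and 316 normalized counts in the authors' deposited table.

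VPC-13789 lowered 38 genes of DHT-treated cells and raised 4, together 42 of 15272 genes tested (0.275% called, 0.249% lower and 0.0262% higher). The genes that fell included classical androgen receptor targets (FKBP5, SGK1, TMPRSS2, CENPN, MAF), brakes on EGF receptor signalling (ERRFI1, LRIG1), growth factor and cytokine receptors (IGF1R, IL6R) and the lipid genes INSIG1, VLDLR, FADS1 and DEGS1, of which INSIG1 alone kept its call under both GC and length centring. Of the 38, 10 fell at least 2-fold and 17 at least 1.5-fold, and 34 averaged at least 100 normalized counts. KLK3, which encodes prostate-specific antigen, was not among them. Across genes the log2 changes of this comparison went with GC content (Spearman rho = 0.816), and 28 of the 42 calls were kept with GC content centred out, while 772 genes were then called. At an unadjusted p under 0.05 stood 1512 genes (5.48% of 27574), 965 lower (3.5%) and 547 higher (1.98%). Just inside the threshold were MAF, CRISPLD2 and CHKA (adjusted p = 0.0474 for CHKA in the authors' deposited table), and just outside it RAB4A (0.0524), SIN3A and TIPARP.

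**Figure D1:**
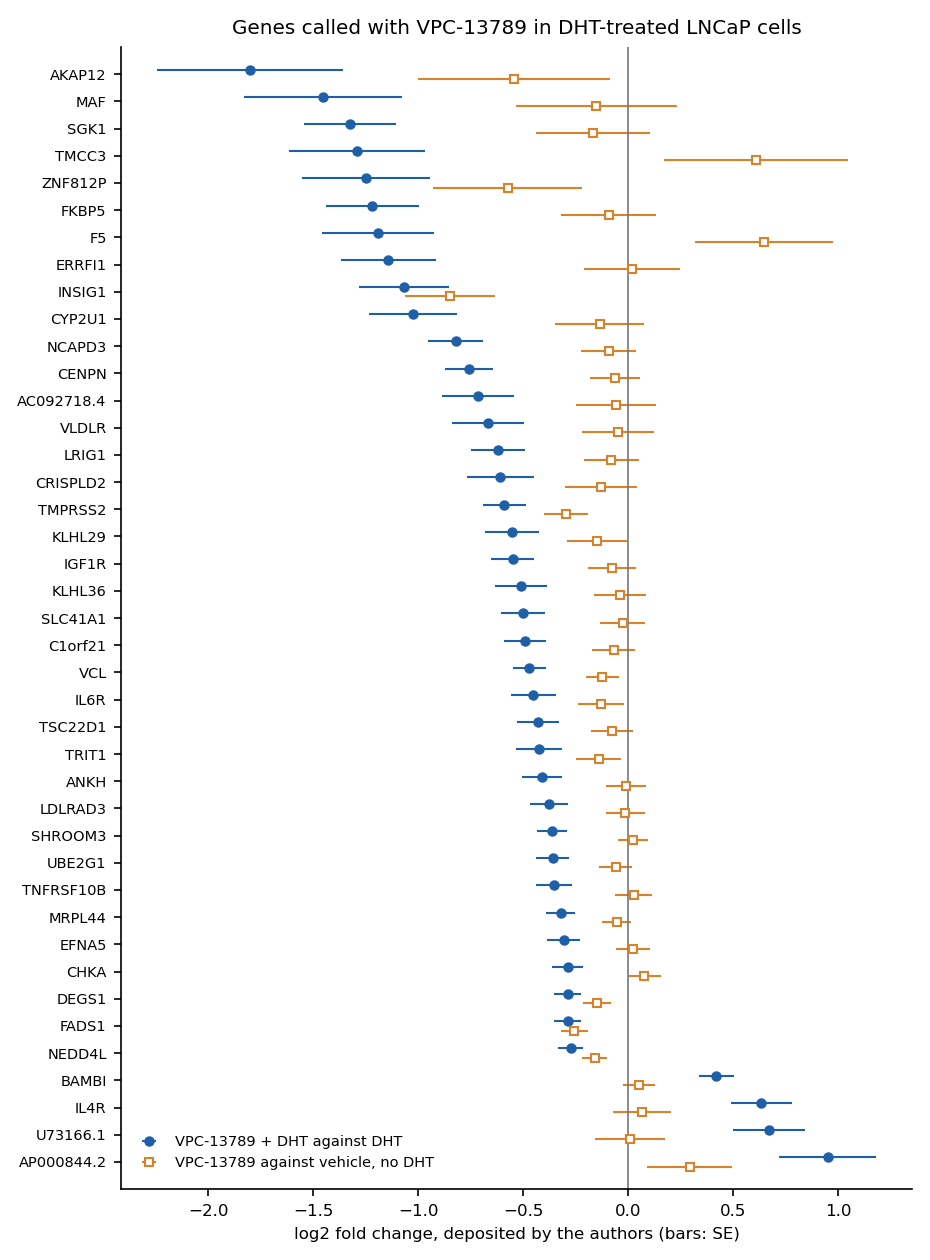
Log2 fold change of 41 of the 42 called genes with VPC-13789 + DHT against DHT (filled circles) and with VPC-13789 against vehicle in other cultures without DHT (open squares), with bars of 1 SE as deposited by the authors. Without DHT most of these genes lie near 0, while INSIG1 (-0.85) and FADS1 (-0.26) lie close to their values with DHT.

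Among the androgen receptor targets, FKBP5, a co-chaperone of steroid receptors, had a mean level of 2514 normalized counts in VPC-13789 with DHT, 5853 in DHT and 839 in vehicle. It fell by 1.22 on the log2 scale (SE 0.22, adjusted p = 0.000107) per the authors' deposited table, to 43.0% of the DHT level. SGK1, a kinase induced by serum, glucocorticoids and androgens, stood at 226, 567 and 34.7 normalized counts in the same 3 groups. Its log2 change in the authors' deposited table was -1.33 (SE 0.22, adjusted p = 6.86e-06). The group level thus lay between DHT and vehicle for both genes, nearer to DHT on a log scale.

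TMPRSS2, a surface protease gene that is the usual partner of ETS fusions in prostate cancer, stood at 8623 normalized counts in VPC-13789 with DHT, 12969.9 in DHT and 1383 in vehicle. Its log2 change in the authors' deposited table was -0.59 (SE 0.10, adjusted p = 1.78e-05), smaller than those of FKBP5 and SGK1. With GC content centred out TMPRSS2 was at -0.76, FKBP5 at -0.70 and SGK1 at -0.81, and differences between genes were not tested. MAF, a bZIP transcription factor, stood at 453, 1240.1 and 159.6 normalized counts, and its log2 change of -1.45 in the authors' deposited table carried a larger error (SE 0.38, adjusted p = 0.0439), and the call ended with length or median centring or without independent filtering.

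CENPN, which reads the centromeric nucleosome, had the lowest adjusted p of all genes, 6.03e-07, at a log2 change of -0.76 (SE 0.11) per the authors' deposited table. Its level was 1968 normalized counts in VPC-13789 with DHT, 3327 in DHT and 793 in vehicle. CENPN spans chr16:81006498-81033114 on the plus strand of GRCh38. The called transcript AC092718.4 lies inside that span on the same strand, at chr16:81030770-81031485, and had a log2 change of -0.72 (SE 0.17) per the authors' deposited table, so reads of the 2 genes may be shared. Of 14 genes of the constitutive centromere network CENPN was the 1 called, and the list had a median log2 change of -0.26, or 0.13 with GC content centred out.

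NCAPD3, a subunit of condensin II, fell to 1899.9 normalized counts in VPC-13789 with DHT, against 3357 in DHT, with 1569.9 in vehicle. Its log2 change in the authors' deposited table was -0.82 (SE 0.13, adjusted p = 2.29e-06). The other 7 of 8 condensin subunits were not called. SMC2 (-1.07, SE 0.73) and NCAPG (-0.97, SE 0.56) had log2 changes at least as large in the authors' deposited table, but with SE several times that of NCAPD3. The list had a median log2 change of -0.60, or -0.007 with GC content centred out, where NCAPD3 was at -0.82.

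A list of 27 classical androgen-induced genes had 6 members called lower and 0 higher, and 24 of 27 had a negative log2 change. Its median was -0.76, against -0.02 over all genes averaging at least 100. In the hallmark androgen response, 11 of 99 genes were called lower and 0 higher, at a median of -0.55. Over all genes tested 0.249% were called lower and 0.0262% higher. With GC content centred out 16 of the 99 were called lower and 1 higher, at a median of -0.24. That centring called 2.13% of all genes tested lower and 2.94% higher. For the classical list the same centring gave 10 lower and 0 higher, at a median of -0.58. Besides the genes above, the low-count targets ADAM7 (-1.39, SE 0.45) and STEAP4 (-1.79, SE 0.64) and the ABC transporter gene ABCC4 (-1.15, SE 0.43) did not pass in the authors' deposited table. Of 12 androgen-repressed genes 0 were called by DESeq2 in the authors' deposited table, and CAMK2N1, an inhibitor of CaM kinase II, was the 1 with an unadjusted p under 0.05 (log2 0.23, SE 0.07, adjusted p = 0.25). With GC content centred out 1 of these 12 was called higher.

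The kallikreins and SLC45A3 were not called. KLK3 stood at 41846 normalized counts in VPC-13789 with DHT, 41849 in DHT and 15915 in vehicle. Its log2 change was -0.00 with a 95% interval from -0.56 to 0.56, so a change within that range cannot be told from none. A call needed a larger change, since the smallest absolute Wald statistic (log2 change over SE) of called genes was 3.83 and the SE of KLK3 was 0.28. KLK2, its neighbour and paralog, had 7114, 8283 and 1415 normalized counts in the same 3 groups and a log2 change with a 95% interval from -0.81 to 0.37. The prostate solute carrier gene SLC45A3 had a log2 change of -0.12 (SE 0.27) per the authors' deposited table, with a 95% interval from -0.65 to 0.40. These 2 intervals include the change of TMPRSS2, and no difference between genes was tested. With GC content centred out KLK3 was at -0.24, KLK2 at -0.40 and SLC45A3 at -0.49, none of them called. PMEPA1, an inhibitor of TGF-β signalling, was at -0.24 (SE 0.13, adjusted p = 0.406) per the authors' deposited table. KLK3 and KLK2 are adjacent paralogs, so reads of shared sequence may be split between them.

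How far the genes stayed from the vehicle level was tested by adding the log2 changes of VPC-13789 with DHT over DHT and of DHT over vehicle (Wald test, Benjamini-Hochberg over 27574 genes). VPC-13789 with DHT differed from vehicle at 300 genes (1.09% called), 202 higher (0.733%) and 98 lower (0.355%). The count was 92 with the variance taken as the sum of the squared SE and 1487 with GC content centred out. Of the 27 classical androgen-induced genes 14 were called above vehicle and 0 below, and their median distance was 1.12 on the log2 scale, against 0.03 over all genes averaging at least 100. TMPRSS2 remained 2.64 above vehicle on the log2 scale (SE 0.10, adjusted p = 2.12e-143), PMEPA1 2.65 (SE 0.13), SGK1 2.70 (SE 0.23) and KLK3 1.39 (SE 0.28, adjusted p = 0.000212). NCAPD3, by the same Wald test, was 0.28 above vehicle (SE 0.13, adjusted p = 0.309) and ERRFI1 0.63 (SE 0.23, adjusted p = 0.2), neither called. INSIG1 was 1.09 below vehicle, a log2 difference of -1.09 (SE 0.21, adjusted p = 8.32e-05).

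**Figure D2:**
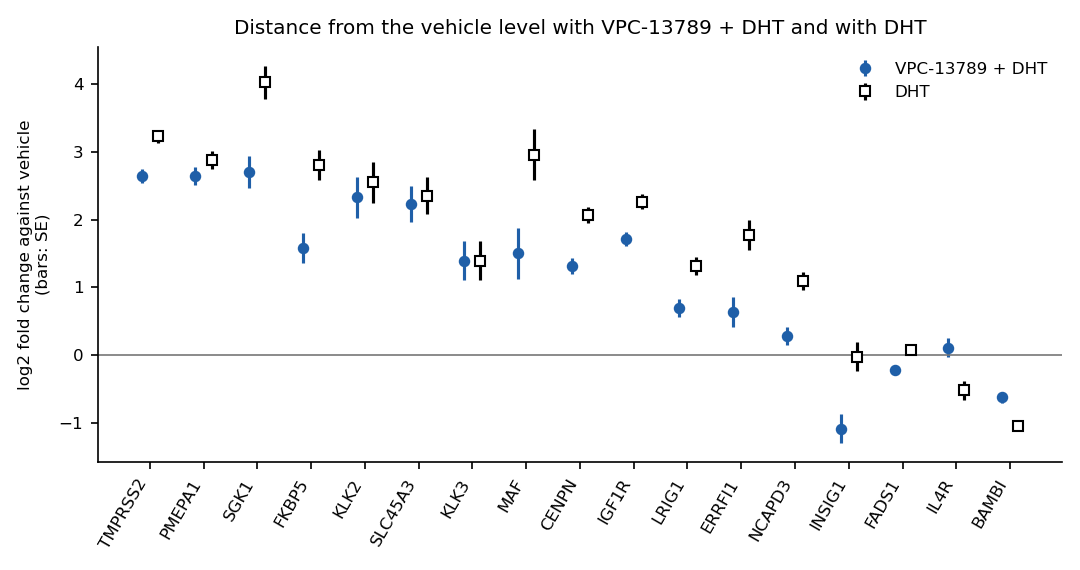
Log2 distance from vehicle of named genes with VPC-13789 + DHT (filled circles) and with DHT (open squares), with bars of 1 SE. TMPRSS2 lies at 2.64 with VPC-13789 + DHT and 3.23 with DHT, KLK3 at 1.39 with both, and INSIG1 at -1.09 with VPC-13789 + DHT and -0.03 with DHT.

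The next group of genes that fell was tied to receptors and their feedback. ERRFI1, a feedback inhibitor of the EGF receptor family, stood at 668 normalized counts in VPC-13789 with DHT, 1474 in DHT and 431 in vehicle, and its log2 change was -1.14 (SE 0.23, adjusted p = 0.00078) per the authors' deposited table. LRIG1, which promotes degradation of the EGF receptor, was at -0.62 (SE 0.13, adjusted p = 0.00175) per the authors' deposited table. These were the 2 called of 15 genes of the receptor family and its feedback. EGFR itself was at -0.72 (SE 0.30, adjusted p = 0.406) and SPRED2, a brake on the RAS pathway, at -0.23 (SE 0.09, adjusted p = 0.406) per the authors' deposited table, neither called.

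IGF1R, the receptor of insulin-like growth factor 1, stood at 1014 normalized counts in VPC-13789 with DHT, 1485 in DHT and 309 in vehicle. It fell by 0.55 on the log2 scale (SE 0.10, adjusted p = 0.000112) per the authors' deposited table. IL6R, the interleukin-6 receptor gene, fell by 0.45 (SE 0.11, adjusted p = 0.0146) per the authors' deposited table. TNFRSF10B, a death receptor for TRAIL and the 1 called of 14 p53 targets, fell by 0.35 (SE 0.09, adjusted p = 0.019) per the authors' deposited table. With length centring none of the 3 was called, IGF1R at -0.10, IL6R at -0.24 and TNFRSF10B at -0.16, while all 3 kept their calls with GC centring.

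Other genes called lower had varied roles. F5, coagulation factor V, and AKAP12, a scaffold for protein kinase A, had log2 changes of -1.19 (SE 0.27) and -1.80 (SE 0.44) per the authors' deposited table. AKAP12 averaged 39.7 normalized counts and ZNF812P and TMCC3 48.1 and 49.97 in the authors' deposited table, so they rest on fewer reads than the rest; F5 was the 4th of the called genes that fell with an average under 100. CYP2U1, a cytochrome P450 that hydroxylates fatty acids, fell by 1.02 (SE 0.21), and the magnesium transporter gene SLC41A1 by 0.50 (SE 0.11) per the authors' deposited table. Between -0.61 and -0.27 lay CRISPLD2, KLHL29, KLHL36, C1orf21, VCL (vinculin), TSC22D1, TRIT1 (a tRNA modifying enzyme), ANKH (a pyrophosphate transporter), LDLRAD3, SHROOM3, UBE2G1 (a ubiquitin conjugating enzyme), MRPL44 (a mitochondrial ribosome protein), EFNA5 (an ephrin), CHKA (choline kinase alpha) and NEDD4L (a ubiquitin ligase).

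The 4 genes that rose were BAMBI, IL4R, U73166.1 and AP000844.2. BAMBI, a decoy receptor of the TGF-β family, stood at 564 normalized counts in VPC-13789 with DHT, 421 in DHT and 871 in vehicle, and its log2 change was 0.42 (SE 0.09, adjusted p = 0.00112) per the authors' deposited table. It was the 1 called of 11 TGF-β and BMP feedback genes. ID1 (0.79, SE 0.28) and ID3 (0.85, SE 0.27), targets of BMP signalling, were not called in the authors' deposited table (adjusted p = 0.406 and 0.264). IL4R, the interleukin-4 receptor gene, was at 0.63 (SE 0.15, adjusted p = 0.00936) per the authors' deposited table. BAMBI was not called with length centring (0.16), nor IL4R with GC centring (0.27). U73166.1 and AP000844.2 averaged 83.8 and 93.4 normalized counts, with log2 changes of 0.67 (SE 0.17) and 0.95 (SE 0.23) per the authors' deposited table.

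The lipid genes INSIG1 and FADS1 had negative log2 changes with VPC-13789 both with DHT and without it, though the second was not called. INSIG1, at chr7:155297776-155310235 on GRCh38, stood at 945 normalized counts in VPC-13789 with DHT, against 1979.8 in DHT and 2015 in vehicle. In cultures without DHT it stood at 1119.6 with VPC-13789, against 2015 in vehicle. The levels in DHT and in vehicle lay close together. The log2 change of INSIG1 in the authors' deposited table was -1.07 with DHT (SE 0.21, adjusted p = 0.000998), -0.85 without DHT (SE 0.21, p = 7.39e-05, adjusted p = 0.679), -0.03 for DHT over vehicle (SE 0.21) and -0.13 for enzalutamide with DHT over DHT (SE 0.21).

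FADS1, the fatty acid desaturase that makes arachidonic acid, stood at 1819.6 normalized counts in VPC-13789 with DHT, against 2221 in DHT and 2119 in vehicle, and at 1774 with VPC-13789 without DHT. In the authors' deposited table its log2 change was -0.29 with DHT (SE 0.06, adjusted p = 0.00542) and -0.26 without it (SE 0.06, p = 5.36e-05, adjusted p = 0.679), against 0.07 for DHT over vehicle (SE 0.06) and -0.05 for enzalutamide with DHT (SE 0.06). The change of FADS1 was small, near 1.22-fold, beside a small SE, and with length centring it was -0.17 and not called.

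The comparison without DHT shares no culture with the one with DHT and none of its genes were called by DESeq2 (0 of 27574, lowest adjusted p = 0.372, 212 or 0.769% at an unadjusted p under 0.05, 0.413% lower and 0.355% higher). By p-value, FADS1 ranked 1 and INSIG1 ranked 2 there among genes averaging at least 100. The SE of both comparisons rest on a shared estimate of spread, so the p-values are not independent. TMPRSS2 (-0.30, p = 0.00491) ranked 8 by DESeq2 in the authors' deposited table. Of the 38 genes lower with DHT, 7 had an unadjusted p under 0.05 without it, and of these F5 had the opposite sign (0.65, SE 0.33). Their median log2 change without DHT was -0.08, against -0.55 with it, and 31 of 38 were negative.

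ABCG1, a sterol exporter, had log2 changes of 0.98 (SE 0.28, adjusted p = 0.122) with DHT and 0.87 (SE 0.28, p = 0.00182) without DHT by DESeq2 in the authors' deposited table, called in neither. It stood at 381 normalized counts in VPC-13789 with DHT against 193 in DHT, and at 514 in VPC-13789 against 281 in vehicle.

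Of 17 genes of sterol uptake and SREBP control 2 were called lower, INSIG1 and the lipoprotein receptor gene VLDLR, and 0 higher, at a median of -0.35. With GC content centred out 2 were called lower and 1 higher. Over all genes tested 0.249% were called lower and 0.0262% higher, or 2.13% and 2.94% with GC content centred out. VLDLR had a log2 change of -0.67 (SE 0.17, adjusted p = 0.0345) with DHT and -0.05 (SE 0.17) without DHT in the authors' deposited table, and with DHT it was not called under GC (-0.26), length (-0.24) or median centring (-0.65) or without independent filtering. Of 20 cholesterol synthesis genes 0 were called by DESeq2, and the list's median was 0.00. At an unadjusted p under 0.05, 6 of the 20 were lower and 0 higher, against 692 lower and 233 higher of 10819 genes averaging at least 100. Among the 6 were MSMO1 (-1.13, SE 0.35), HMGCS1 (-1.12, SE 0.41), IDI1 (-1.06, SE 0.51), CYP51A1 (-0.82, SE 0.33) and SQLE (-0.75, SE 0.22) per the authors' deposited table. SQLE catalyses the first oxygen-dependent step of the pathway. With GC content centred out, MSMO1 was at -0.45, HMGCS1 at -0.55 and SQLE at -0.61, with 0 of the list called lower and 1 called higher.

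Of 16 genes of fatty acid synthesis and desaturation FADS1 was the 1 called. ACSL3 and ELOVL7, an acyl-CoA synthetase and a fatty acid elongase, were at -1.18 (SE 0.41) and -1.31 (SE 0.46) per the authors' deposited table, not called. DEGS1, the desaturase that makes ceramide and a gene outside that list, fell by 0.29 (SE 0.07, adjusted p = 0.00918) per the authors' deposited table, but was at 0.046 and not called with GC content centred out.

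**Figure D3:**
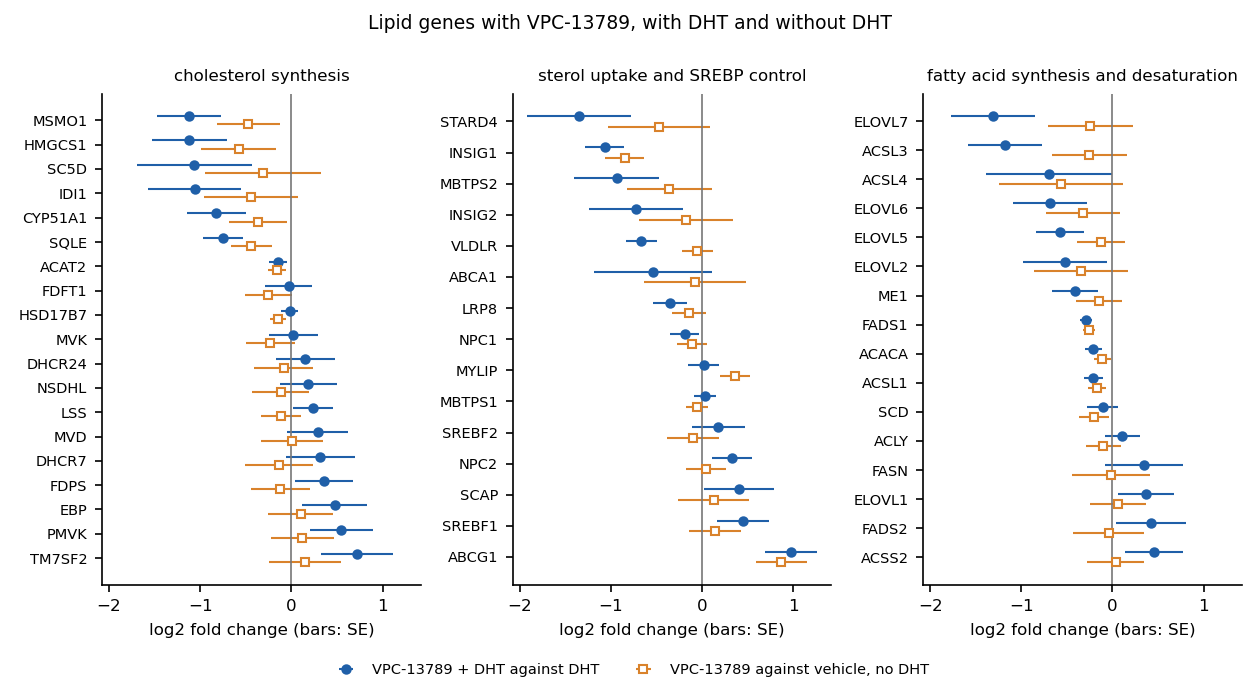
Log2 fold change of lipid genes from 3 lists with VPC-13789 + DHT against DHT (filled circles) and with VPC-13789 against vehicle without DHT (open squares), bars of 1 SE, for genes averaging at least 10 normalized counts. INSIG1, FADS1 and ABCG1 have close values in both, and the cholesterol synthesis genes spread from -1.13 (MSMO1) to 0.72 (TM7SF2) with DHT.

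Whether the effect of VPC-13789 differed with and without DHT was tested directly as the difference of the 2 log2 changes (Wald test). None of 27574 genes passed (0 called, lowest adjusted p = 0.345, 394 or 1.43% at an unadjusted p under 0.05); with GC content centred out of both comparisons 36 did. CENPN and F5 had the lowest p, with differences of -0.70 (95% interval -1.02 to -0.37) and -1.84 (95% interval -2.67 to -1.01). The interval ran from -0.81 to 0.37 for INSIG1 and from -0.21 to 0.15 for FADS1. FKBP5 and ERRFI1 had differences of -1.13 (95% interval -1.75 to -0.51) and -1.16 (95% interval -1.79 to -0.53), which did not pass after adjustment.

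Set beside 1.5 µM enzalutamide with DHT, a different dose, 3 genes passed the Wald test of the difference (0.0109% of 27574 called, 0.00725% higher and 0.00363% lower; 1515 or 5.49% at an unadjusted p under 0.05), and 0 passed with the variance taken as the sum of the squared SE (133 at an unadjusted p under 0.05). SGK1 stood at 226 normalized counts with VPC-13789 and 82.1 with enzalutamide, each with DHT, and BAMBI at 564 and 788. INSIG1 had a log2 difference of -0.93 between VPC-13789 and enzalutamide with a 95% interval from -1.35 to -0.51 (Wald adjusted p = 0.0793), and did not pass. For CENPN, NCAPD3, FKBP5 and ERRFI1 the intervals of the difference included 0, at -0.03 to 0.42, -0.05 to 0.46, -0.07 to 0.80 and -0.31 to 0.57.

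Across 10777 nuclear genes averaging at least 100, the log2 change with VPC-13789 and DHT went with the GC content of the longest transcript (Spearman rho = 0.816, given as a description, since genes of 1 library set are not independent). The median log2 change was -0.66 in the lowest of 20 bins by GC content and 0.52 in the highest. The same rho was 0.741 for VPC-13789 and 0.775 for enzalutamide, each over vehicle without DHT. It was 0.498 for DHT over vehicle and -0.322 for enzalutamide with DHT over DHT. The comparisons over vehicle share that group, so their values are not separate observations. The 38 genes called lower had a median GC content of 46.3%, against 48.4% over all these genes. What made the log2 changes go with GC content was not tested.

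**Figure D4:**
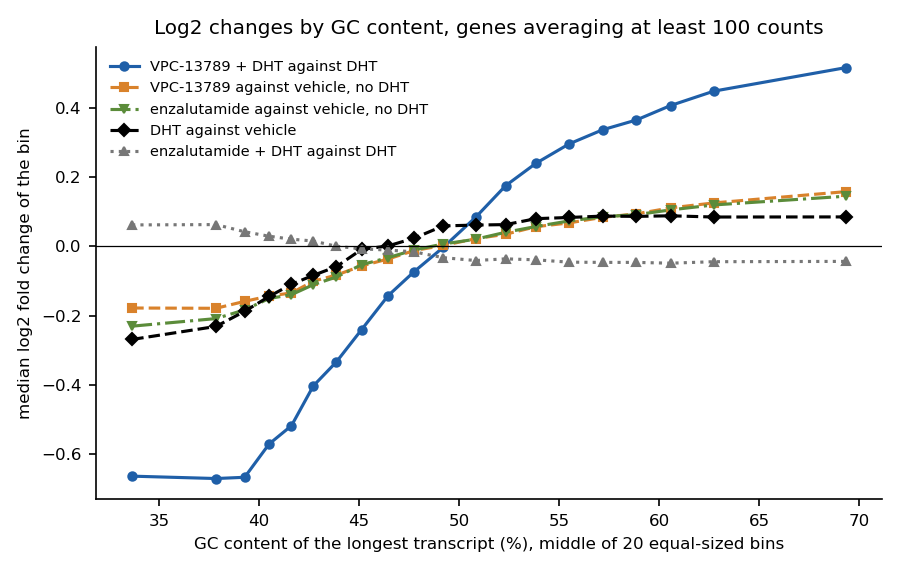
Median log2 fold change by GC content of the longest transcript in 20 bins of nuclear genes averaging at least 100 normalized counts. VPC-13789 + DHT over DHT runs between -0.66 at the lowest GC content and 0.52 at the highest, VPC-13789 without DHT (-0.18 to 0.16), enzalutamide without DHT (-0.23 to 0.15) and DHT over vehicle (-0.27 to 0.09) run the same way over a smaller range, and enzalutamide + DHT over DHT (0.062 to -0.043) runs slightly the other way.

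Subtracting from each gene the median of genes of like GC content, with its SE kept, gave 772 called genes (5.07%), 324 lower (2.13%) and 448 higher (2.94%), against 38 lower and 4 higher before. Of the 42 genes 28 were called both ways, and 172 of the 744 added genes had an unadjusted p under 0.05 as deposited. TMPRSS2 (-0.76, adjusted p = 2.05e-11), CENPN (-0.75), NCAPD3 (-0.82), INSIG1 (-0.92, adjusted p = 0.000944), FADS1 (-0.37), SGK1 (-0.81), FKBP5 (-0.70, adjusted p = 0.0361) and MAF (-1.31) were among the 28 that stayed called by the Wald test on the GC-centred values. The calls of VLDLR (-0.26), VCL (-0.23), C1orf21 (-0.25), ANKH (-0.27), AC092718.4 (-0.38), ZNF812P (-0.84), TRIT1 (-0.02), MRPL44 (-0.08), IL4R (0.27) and U73166.1 (0.31) were lost, and UBE2G1 (0.21), EFNA5 (0.10), DEGS1 (0.05) and NEDD4L (0.06) lost theirs with the opposite sign. PMEPA1, at -0.48 (adjusted p = 0.00868), was called in the centred values and not as deposited.
Centring on transcript length in the same way, with which the log2 change had a rho of -0.424, gave 829 called genes and kept 21 of the 42 calls. Among the named genes it ended the calls of MAF (-1.12), CRISPLD2 (-0.47), SLC41A1 (-0.30), TSC22D1 (-0.29), IL6R (-0.24), VLDLR (-0.24), KLHL29 (-0.22), TRIT1 (-0.22), FADS1 (-0.17), KLHL36 (-0.17), UBE2G1 (-0.17), TNFRSF10B (-0.16), IGF1R (-0.10), EFNA5 (-0.10), VCL (-0.05), C1orf21 (-0.04), BAMBI (0.16) and AP000844.2 (0.64), and those of NEDD4L, ANKH and SHROOM3 with the opposite sign. FKBP5, SGK1, TMPRSS2, CENPN, NCAPD3, ERRFI1, LRIG1 and INSIG1 kept theirs.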

How the data were processed

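Total RNA of LNCaP cultures was sequenced on the BGISEQ-500 platform, 3 replicates in each of 6 groups, called biological in the labels; p-values therefore measure the spread between cultures of 1 line. Per the submitters' processing notes the tools were FastQC, STAR 2.6.1c, featureCounts and DESeq2, on GRCh38.p12. Strandedness, filters and the gene annotation are not given in the sources used. All RNA integrity numbers were 9.5 to 10, per the labels.

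Each table lists per gene an average normalized count over all samples, a linear signal deposited by the authors. The log2 fold change and its SE were deposited by the authors too, as were the Wald statistic, which is a score (log2 change over SE), and a p-value with its adjusted p-value. Recomputed from the statistic, p matched a two-sided normal test in every row. The adjusted p matched Benjamini-Hochberg over the 15272 genes left by independent filtering, here those averaging at least 10.8 normalized counts. The other 12302 genes had no adjusted p and were not called. They kept a log2 change, SE and p, and were counted in the tests over all 27574 genes. In 25 rows a date stood for the gene symbol, and 0 of these were called.

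The effect with DHT minus that without DHT was given a variance equal to the sum of the squared SE. For the differences from enzalutamide with DHT and from vehicle it was the mean of both squared SE, which holds where the DHT group cancels and variances are equal. The alternative with the sum of the squared SE also counts the DHT group, so for these differences it is an upper limit of the variance. Each was a two-sided Wald test adjusted by Benjamini-Hochberg over all genes. Group levels were recovered from the average and the log2 changes and are rough where counts are low, as for STEAP4. GC content, length and coordinates were read from GENCODE 29 (GRCh38), matched for 99.3% of genes; the authors may have used another release. Centring used 20 bins of nuclear genes averaging at least 100. A gene span is the whole annotated gene. Without strand, overlapping and antisense genes cannot be told apart. The software was Python 3.11.15 with pandas 2.3.3, scipy 1.17.1 and numpy 2.4.6. Simulated data were used to test the single comparison, the difference with and without DHT, the difference with a shared group and GC centring. The other steps were not tested in this way.

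Named genes were all called genes, a panel of 11 genes, called members and up to 4 others per list by lowest p, and the genes leading the tested differences; a few of them are counted in the totals and not reported here. The 30 lists hold 489 entries from general knowledge, of which 14 had no row and were not used here. The members and lists were chosen with earlier results of these data known. Lists got counts and medians and no set test. Alternatives changed the threshold, the filtering, a minimum fold, the variance and the centring by the median, GC content or length.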

Additional observations from a re-analysis of the deposited data

Results flagged for a closer look

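The 3 differences between VPC-13789 and enzalutamide, each with DHT, that are listed here passed the Wald test of the difference with Benjamini-Hochberg adjustment, at different doses of the compounds. SGK1 was 1.46 higher on the log2 scale in VPC-13789 than in enzalutamide (SE 0.22, adjusted p = 1.41e-06); against DHT it was at -1.33 with VPC-13789 and -2.79 with enzalutamide in the authors' deposited table. BAMBI differed by -0.48 (SE 0.08, adjusted p = 0.000122), with 0.42 for VPC-13789 and 0.90 for enzalutamide against DHT in the authors' deposited table. CHST2, a carbohydrate sulfotransferase gene averaging 27.8 normalized counts, was higher by 1.50 (SE 0.30, adjusted p = 0.00634), with -0.49 for VPC-13789, not called, and -1.99 for enzalutamide in the authors' deposited table. With the variance taken as the sum of the squared SE 0 genes passed that Wald test (133 at an unadjusted p under 0.05), and the adjusted p of SGK1, BAMBI and CHST2 were 0.0941, 0.658 and 0.95. That sum also counts the DHT group, which cancels from the difference, so it is an upper limit of the variance.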

How the results depend on the processing

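No paired analysis was possible because the files hold the authors' comparisons and no values per sample; for the same reason no replicate could be left out. The 42 calls became 22 at an adjusted p under 0.01 (20 lower, 2 higher), 20 with a minimum of 1.5-fold (17 lower), 772 with GC centring (324 lower, 448 higher) and 829 with length centring (377 lower, 452 higher). Among genes averaging at least 100 the higher calls became 2. Calls against enzalutamide, 3 as reported, became 0 with the variance as the sum, 726 with GC centring and 5 among genes averaging at least 100. Calls of the difference with and without DHT became 36 with GC centring, and calls against vehicle, 300 as reported, 92 with the variance as the sum and 1487 with GC centring. The other counts stayed within 1.5 times. Of the 42 genes, 28 kept their call with GC centring, 21 with length centring, 36 with median centring and 34 without independent filtering. Signs turned with GC centring for NEDD4L (0.061), DEGS1 (0.046), EFNA5 (0.10) and UBE2G1 (0.21), with length centring for NEDD4L (0.15), ANKH (0.016) and SHROOM3 (0.086), and with median centring for KLK3 (0.018). The causes were not tested. Precision is limited by the SE, and a gene at the median SE was not called below 2.05-fold.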

Other observations

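Genes of the cell's basic machinery had medians away from 0 with no member called as deposited. For comparison, of 10819 genes averaging at least 100, 233 were higher and 692 lower at an unadjusted p under 0.05. After GC centring 2.94% of all genes tested were called higher and 2.13% lower. All 13 mitochondrially encoded protein genes had positive log2 changes with VPC-13789 and DHT over DHT, between 0.56 and 0.81 (median 0.74), and 0 were called by DESeq2, with 4 at an unadjusted p under 0.05. Without DHT their median with VPC-13789 was 0.30, and all 13 were positive. MT-ND1, a subunit of complex I, had 0.81 (SE 0.39, adjusted p = 0.406) with DHT and 0.35 (SE 0.39) without DHT in the authors' deposited table. After GC centring, which was built on nuclear genes, the median was 0.96 and 3 were called higher. The 20 ribosomal protein genes were all positive too, at a median of 0.53 with DHT and 0.11 without it, with 0 called and 0 at an unadjusted p under 0.05 by DESeq2; their median GC content was 55.3%, and after GC centring their median was 0.32 with 2 called higher.

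Among stress genes, 12 of 14 ATF4 targets had a positive log2 change, at a median of 0.27, and 0 were called by DESeq2, with 3 at an unadjusted p under 0.05. They were CHAC1 (1.04, SE 0.46), which degrades glutathione, SLC7A5 (0.95, SE 0.40), an amino acid transporter, and TRIB3 (0.84, SE 0.39), a pseudokinase, in the authors' deposited table. Metallothioneins had a median of 0.62 over 6 genes, 0 of them called by DESeq2 and 3 at an unadjusted p under 0.05, with MT2A at 0.80 (SE 0.34) per the authors' deposited table. Their median GC content was 55.7%, and after GC centring their median was 0.31. The least expressed of the 6 averaged 0.26 normalized counts. Medians of S phase genes, heat shock genes, the unfolded protein response and p53 targets lay between -0.22 and 0.09, with TNFRSF10B as the 1 called gene. The 15 mitosis genes had a median of -0.41 and, after GC centring, 0.15, with 0 called by DESeq2 and 1 at an unadjusted p under 0.05.

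TIPARP, an ADP-ribosyltransferase induced by the aryl hydrocarbon receptor and by androgen, did not pass, at -1.42 on the log2 scale (SE 0.38, adjusted p = 0.0596) per the authors' deposited table. FOSL2, an AP-1 subunit, was at -0.34 (SE 0.09, adjusted p = 0.0861) with DHT and 0.15 (SE 0.09) without DHT in the authors' deposited table.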
